A study of Mus musculus with 9 samples.

Results

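Small nucleolar RNA (snoRNA) host genes are genes whose introns carry snoRNAs, and 9 of them with noncoding or poorly coding transcripts were followed in mouse HC11 mammary epithelial cells with and without exposure to 660 nm light. The genes were taken by name from the deposited count table, in which Snhg1, Snhg3, Snhg6, Snhg8, Snhg12, Snhg17, Snhg20, Gas5 and Epb41l4aos are 9 of 54532 genes. All 9 were in the table, and 8 had enough counts to be tested. The ninth, Snhg3, had 8 counts in all libraries together.

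RNA was sequenced from 9 libraries in 3 groups of 3. The Ctrl cells were untreated, the EpPT1 cells were exposed to light with a labelled fluence of 10 J/cm2, and the EpPT2 cells were exposed with a labelled fluence of 20 J/cm2. The treatment protocol names other values, 0.5 and 1 J/cm2 from a 10 mW laser, whereas the design text names an LED, so the fluences are given here as labelled only. All 3 groups were the HC11 line, labelled as strain C57BL/6, an established line of mammary epithelium grown here in DMEM with 10% serum. How long after exposure the cells were lysed was not given in the sources used here. No label states whether libraries of 1 group are separate cultures, and p-values therefore describe the spread among these libraries, part or all of which may be technical.

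snoRNAs guide the chemical modification of ribosomal and other RNAs. Those with C and D boxes direct methylation of the ribose, and those with H and ACA boxes direct the change of uridine to pseudouridine. In mammals most of them are cut out of the introns of a longer transcript while it is spliced. In hosts such as Gas5 and Snhg1 the spliced exons encode little or no protein, the transcript begins with a run of pyrimidines as in genes of ribosomal proteins, and the RNA is translated and then removed by nonsense-mediated decay. Gas5 was first identified as a transcript that accumulates in growth-arrested mouse fibroblasts, and its RNA can bind the DNA-binding domain of the glucocorticoid receptor.

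The snoRNAs that the annotation places inside these hosts are shown by 4 examples, because the counts described further on depend on where the snoRNA lies relative to the host's exons. The sequences are GENCODE M21 transcripts on GRCm38, written 5′ to 3′ on the strand of the snoRNA. Capitals mark TGATGA, the C box, and CTGA, the D box, in Snord87 (inside Snhg6, chr1:9942463-9942549, minus strand), Snord47 (inside Gas5, chr1:161038082-161038158, plus strand) and Snord99 (inside Snhg12, chr4:132310691-132310764, plus strand). In Snora24 (inside Snhg8, chr3:123507937-123508066, minus strand) capitals mark the ACA near the end.
Snord87: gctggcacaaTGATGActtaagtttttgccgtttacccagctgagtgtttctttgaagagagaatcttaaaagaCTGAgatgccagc
Snord47: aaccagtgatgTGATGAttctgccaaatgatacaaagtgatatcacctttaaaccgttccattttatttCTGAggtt
Snord99: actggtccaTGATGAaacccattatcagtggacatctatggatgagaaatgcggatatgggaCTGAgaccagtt
Snora24: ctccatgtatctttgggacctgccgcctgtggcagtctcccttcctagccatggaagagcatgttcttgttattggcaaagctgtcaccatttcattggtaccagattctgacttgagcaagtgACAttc

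Of the 31 annotated snoRNAs inside the hosts whose sequences were searched, 15 had TGATGA in the first 20 bases together with CTGA in the last 15 bases. A further 10 had ACA in the last 8 bases, and 6 had neither by these exact letters. Only the strand of the snoRNA was searched, and the ACA count left out sequences already counted for the C and D boxes.

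The promoters of the hosts are shown for the 4 genes, among those searched, that held a TATA sequence. They carry that sequence and a run of pyrimidines at or near the start. Each line runs 5′ to 3′ over 40 bases before and 20 bases after the start annotated by RefSeq on GRCm38.p6. Capitals mark TATA and the run of C and T at or near the start. In Snhg1 the marked run begins only at position 5, counting the annotated start as 1. The windows are chr1:161035126-161035185 on the plus strand for the second of the Gas5 starts, chr19:8723447-8723506 on the plus strand for Snhg1, chr3:123508317-123508376 on the minus strand for Snhg8, and chr4:132308638-132308697 on the plus strand for Snhg12.
Gas5: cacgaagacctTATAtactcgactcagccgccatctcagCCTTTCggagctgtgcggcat
Snhg1: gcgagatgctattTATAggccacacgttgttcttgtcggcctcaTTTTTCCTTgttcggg
Snhg8: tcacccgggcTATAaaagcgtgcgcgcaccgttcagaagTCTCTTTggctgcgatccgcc
Snhg12: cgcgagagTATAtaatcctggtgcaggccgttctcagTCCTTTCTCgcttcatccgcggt

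Promoters of 7 hosts were taken from the RefSeq table, with 2 starts each for Gas5 and Snhg17. Sequences on chromosome 18 were left out, so Epb41l4aos was not searched, and no promoter was found there for Snhg6. A host counts below if any of its starts matches, whereas the shares of all promoters count each promoter. Gas5 matched TATA and the run, and Snhg17 the run, at only 1 of the 2 starts. TATA starting between -40 and -20 on the sense strand was present for 4 of the 7 hosts (Gas5, Snhg1, Snhg8 and Snhg12), against 5.81% of the 32851 promoters of the same length in the table. A run of at least 6 pyrimidines touching the window from -5 to 10 was present for those 4 and for Snhg17, against 24.4% of all promoters. CACGTG, the palindromic E-box bound by MYC and its relatives, was present anywhere in the promoter for 0 of the 7 hosts (250 bases before to 50 after the start), against 7.15% of all promoters. These matches describe letters in a window and no binding or use of a site.

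Levels per unit of length, averaged over all groups, put Snhg6 first and Snhg12 last among the tested hosts. Length-scaled transcript levels (TPM) were computed from the deposited counts and gene lengths over all 9 libraries. The lengths take in all annotated exonic bases, 3760 for Gas5 and 2969 for Snhg1 against 1146 for Snhg6 and 430 for Epb41l4aos. For Gas5 and Snhg1 they include introns that some annotated transcripts retain. By total counts Gas5 was highest with 24925, against 14360 for Snhg6 and 3898 for Epb41l4aos, so the order depends on these lengths. Snhg6, the host of Snord87, averaged 264 ± 108 TPM (SD, n = 9 libraries) and was 551st among all genes. Epb41l4aos, a host whose 3′ end faces that of the protein-coding gene Epb41l4a on the opposite strand, averaged 189 ± 62.7 TPM. Gas5 averaged 139 ± 28.9 TPM and Snhg1 124 ± 42.0 TPM. In Ctrl alone the order of the first 4 was Snhg6 at 248 ± 148 TPM, Snhg1 at 143 ± 56.8 TPM, Gas5 at 130 ± 14.1 TPM and Epb41l4aos at 122 ± 20.6 TPM (SD, n = 3). Epb41l4aos averaged 204 ± 62.7 TPM in EpPT1 and 240 ± 15.5 TPM in EpPT2, so its second place over all libraries came from the exposed groups.

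The lower part of the order held Snhg8, the host of Snora24, at 84.1 ± 24.9 TPM, followed by Snhg20 at 50.2 ± 32.9 TPM and Snhg17 at 46.0 ± 13.7 TPM. Snhg12, which carries snoRNAs of both kinds, averaged 29.6 ± 11.2 TPM. Between each of these neighbours in the order the ranges over libraries overlapped. Within libraries, Snhg6 was above Epb41l4aos in 7 of 9, Gas5 was above Snhg1 in 8 of 9, and Snhg17 was above Snhg12 in 9 of 9. Snhg20 was above Snhg17 in only 3 of 9 libraries although its mean was higher.

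Snhg3, the host of the Snora73 pair that takes part in ribosomal RNA cleavage, had no count in any Ctrl library, 0, 2 and 4 counts in EpPT1, and 0, 1 and 1 counts in EpPT2. In a library of these depths a count of 0 allows up to 3 counts, or 0.174 to 0.206 CPM (counts scaled to library size) by library, which covers counting error only. Snhg3 was therefore at or near the limit of detection in the 9 libraries, and no fold is given for it.

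The place of Snhg3 in the annotation bears on that value. Its gene (ENSMUSG00000085241, chromosome 4, 132348014 to 132353686, minus strand, GRCm38) has 986 exonic bases, of which 851 (86.3%) are also exonic bases of another annotated gene. Of these, 705 are shared with Gm17300, a long noncoding RNA gene on the opposite strand, and 135 with Rcc1, on the same strand. Over the whole table, genes lying wholly inside exons of a same-strand gene had a count in any library in 3.03% of 595 cases, and those inside exons of opposite-strand genes only in 0.682% of 440 cases, against 49.0% of the 41393 genes with no exonic overlap. Snhg3 itself is among the genes that overlap others only in part, and of 10474 such genes 77.4% had a count. These shares leave out snoRNAs. They do not show how reads on shared bases were credited, and the part of the overlap in the low count of Snhg3 was not tested.

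The other hosts had smaller shared parts. Shared bases made up 20.9% of the exonic bases of Snhg1, 19.6% of Snhg12, 17.8% of Gas5, 15.2% of Snhg8, 11.1% of Snhg6, 7.69% of Snhg20 and 5.35% of Snhg17. Epb41l4aos shared none. The annotation holds retained-intron transcripts for Snhg1 (14 of 18 transcripts) and Gas5 (20 of 25), so that exons cover 100% of the span of Snhg1 and 91.3% of that of Gas5, and the snoRNAs fall within annotated exons of their hosts.

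**Figure D1:**
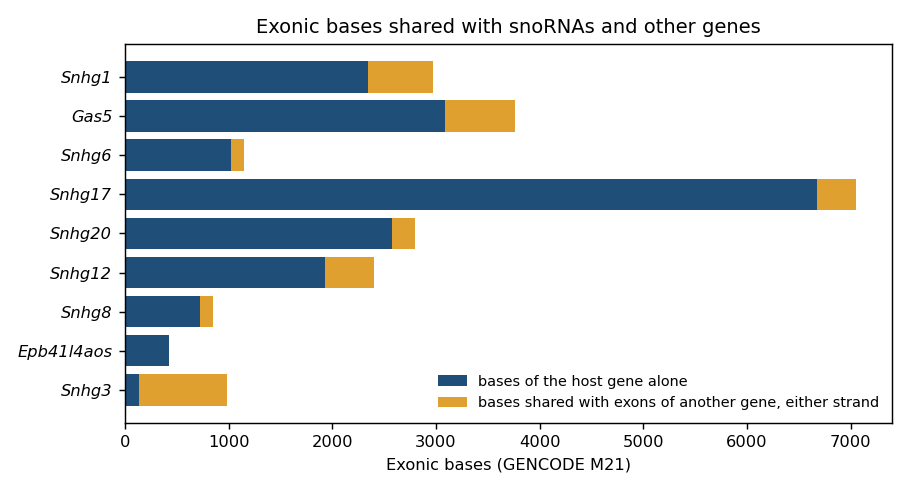
Exonic bases of each host gene in GENCODE M21 (horizontal axis), split into bases of the host alone and bases shared with exons of any other annotated gene on either strand, snoRNAs included. Snhg3 stands apart with 851 of 986 bases shared, while Epb41l4aos has none.

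The snoRNA rows followed the same pattern. The table had 32 snoRNA genes inside the hosts, and 30 were at 0 in every library. All 28 that lie wholly inside host exons were at 0, as were all 157 such snoRNAs in the whole table, against 20.2% of 1277 snoRNAs without exonic overlap that had a count. Of the 3 lying outside host exons, 2 had counts.

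Snord87, in an intron of Snhg6, had 2, 3 and 21 counts in Ctrl, 6, 16 and 33 counts in EpPT1, and 19, 26 and 18 counts in EpPT2. Gm23639, in an intron of Epb41l4aos, had 22, 12 and 29 counts in Ctrl, 10, 12 and 28 counts in EpPT1, and 20, 34 and 38 counts in EpPT2. The groups overlapped for both genes. Per 100 counts of its host, Snord87 ranged from 0.206 to 0.874 in Ctrl, from 0.411 to 1.71 in EpPT1 and from 0.867 to 1.54 in EpPT2. Gm23639 went the other way, with 4.33 to 10.1 in Ctrl, 2.22 to 4.86 in EpPT1 and 3.63 to 6.74 in EpPT2. Whether such reads came from the mature snoRNA, from host precursor or from a retained intron was not tested.

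The 9 libraries had 14549787 to 17228929 counts in total and differed in several ways, only some of which cut across the groups. Counts on mitochondrial genes were 6.06% to 7.48% in Ctrl 3, EpPT1 3, EpPT2 2 and EpPT2 3, and 2.74% to 3.62% in the other 5 libraries. Log2 CPM, centred on each gene's mean over the 9 libraries, was regressed on GC content. The slope per 10 percentage points was -0.495 to -0.223 in Ctrl, -0.355 to 0.368 in EpPT1 and 0.186 to 0.291 in EpPT2. These slopes are relative to the mean of the libraries, and those of Ctrl all lay below those of EpPT2. Within groups, pairs of libraries differed with a chi-square per gene of 49.74 to 153.2, except EpPT2 2 and EpPT2 3, which differed by 4.739 and were thus far more alike than other pairs. The luminal keratin gene Krt8 (559 to 836 CPM) and the epithelial gene Epcam (17.7 to 44.8 CPM) were present in all libraries, and the adhesion gene Cdh1 was low, at 0.226 to 0.777 CPM. Of the fibroblast markers Dcn gave nearly the whole sum (742 to 3295 CPM) while Thy1 had 0 counts. The summed blood and immune markers, 1 of 4 of them tested, were 9.74 to 103 CPM in Ctrl, 11.5 to 98.9 CPM in EpPT1 and 13.2 to 89.9 CPM in EpPT2, nearly all from Cd68, with Cd3e at no more than 0.132 CPM. The part of these differences in the host gene values was not tested, apart from the fits given below.

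All values by library that follow are CPM scaled by the trimmed mean of M-values (TMM), in the order of libraries 1, 2 and 3. Snhg1 (ENSMUSG00000108414, chromosome 19, 8723475 to 8726443, plus strand), the host of Snord22 and 7 other annotated snoRNAs, had 107, 99.3 and 232 CPM in Ctrl, 92.0, 74.8 and 158 CPM in EpPT1, and 81.1, 157 and 147 CPM in EpPT2. The highest value belonged to Ctrl 3, and in each group the libraries with the larger mitochondrial share were the high ones. The same held in each group for the other 7 tested hosts. The groups of Snhg1 overlapped throughout.

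Gas5 (ENSMUSG00000053332, chromosome 1, 161034422 to 161038539, plus strand) had 152, 139 and 203 CPM in Ctrl, 153, 136 and 250 CPM in EpPT1, and 136, 225 and 223 CPM in EpPT2. The 5 libraries with under 5% mitochondrial counts lay between 136 and 153 CPM whatever their group. Snhg6 (ENSMUSG00000098234, chromosome 1, 9941959 to 9944118, minus strand) had 60.2, 56.9 and 180 CPM in Ctrl, 84.2, 53.0 and 148 CPM in EpPT1, and 75.3, 145 and 147 CPM in EpPT2. Its lowest library was EpPT1 2, its highest was Ctrl 3, and the groups overlapped.

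Snhg17 (ENSMUSG00000085385, chromosome 2, 158353700 to 158361580, minus strand), a host with 3 annotated snoRNAs, had 74.4, 67.9 and 111 CPM in Ctrl, 84.0, 91.7 and 152 CPM in EpPT1, and 100, 161 and 165 CPM in EpPT2. Ctrl 1 and Ctrl 2 were its lowest libraries and EpPT2 2 and EpPT2 3 its highest, with Ctrl 3 above EpPT2 1. Snhg20 (ENSMUSG00000086859, chromosome 11, 117076008 to 117078955, plus strand), with 1 annotated snoRNA, had 20.5, 24.8 and 37.2 CPM in Ctrl, 19.6, 29.1 and 110 CPM in EpPT1, and 32.7, 80.0 and 87.0 CPM in EpPT2. Its 3 highest values were those of the exposed libraries with over 5% mitochondrial counts.

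Snhg12 (ENSMUSG00000086290, chromosome 4, 132308623 to 132311024, plus strand) had 14.5, 12.8 and 20.9 CPM in Ctrl, 17.4, 20.6 and 44.4 CPM in EpPT1, and 26.5, 30.5 and 33.7 CPM in EpPT2. All EpPT2 libraries were above all Ctrl libraries. Snhg8 (ENSMUSG00000104960, chromosome 3, 123507552 to 123508404, minus strand) had 14.1, 15.4 and 26.6 CPM in Ctrl, 20.9, 22.4 and 40.8 CPM in EpPT1, and 23.8, 33.0 and 25.7 CPM in EpPT2. Here Ctrl 3 lay above 2 of the EpPT2 libraries and 2 of the EpPT1 libraries.

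Epb41l4aos (ENSMUSG00000087590, chromosome 18, 33794892 to 33795986, plus strand) had 13.5, 16.6 and 23.0 CPM in Ctrl, 18.9, 30.6 and 39.9 CPM in EpPT1, and 33.6, 35.4 and 39.8 CPM in EpPT2. The EpPT2 values were all above the Ctrl values and lay close together, also between the library with 3.38% and that with 6.94% mitochondrial counts. EpPT1 1 lay within the range of Ctrl, and the other 2 EpPT1 libraries did not.

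**Figure D2:**
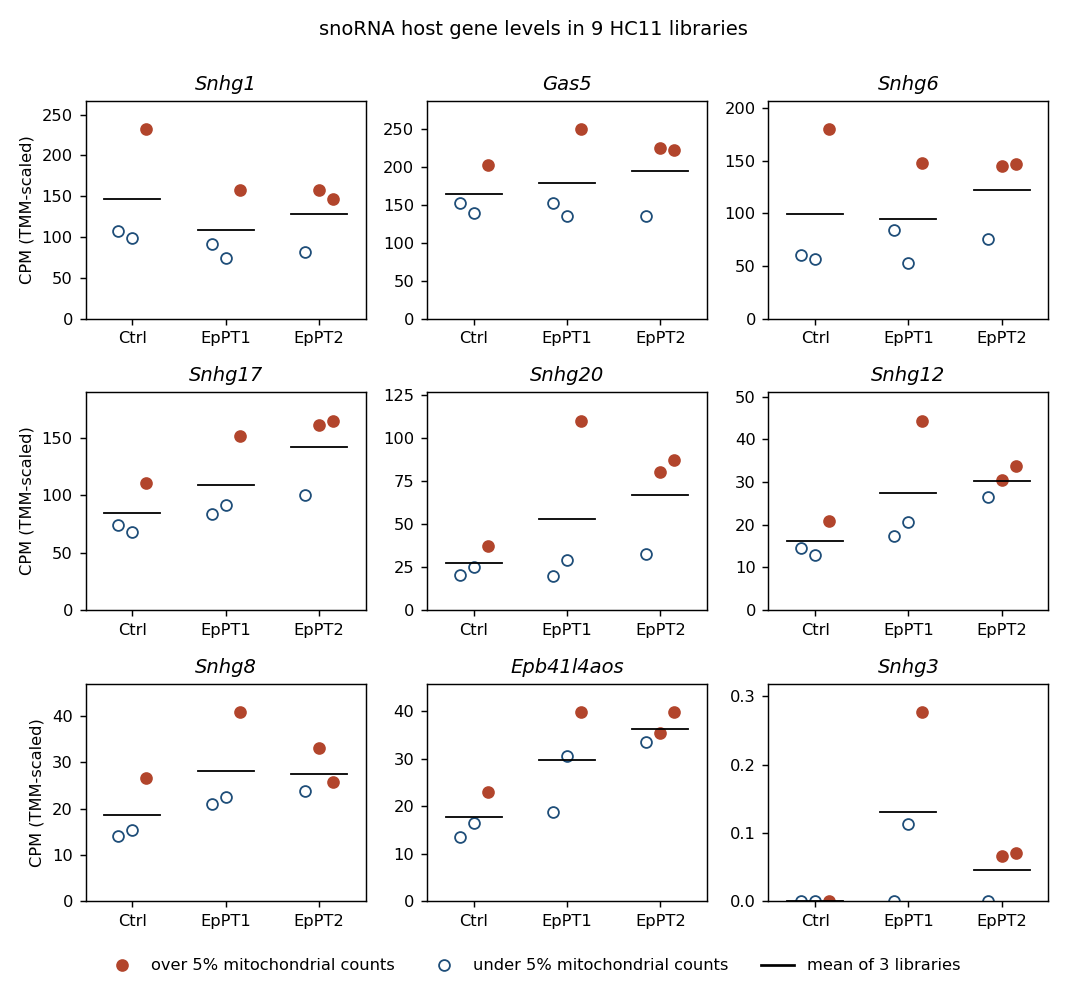
TMM-scaled CPM (vertical axes, from 0 and different for each gene) of the 9 host genes in the Ctrl, EpPT1 and EpPT2 libraries. Points are libraries, lines are means of 3, and filled points mark the 4 libraries with over 5% mitochondrial counts, which for all 8 tested hosts lie above the open points of their own group.

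The comparison of EpPT2 with Ctrl asks what exposure with the higher labelled fluence did to these hosts. No host passed the test (edgeR's quasi-likelihood test, Benjamini-Hochberg adjusted p under 0.05), and the background was 0% of 14471 genes. At an unadjusted p under 0.05 Snhg12, Snhg17 and Epb41l4aos were higher in EpPT2, 3 of 8 hosts against 6.88% of all genes tested, and none of the 8 was lower, against 5.31%. Snhg12 and Epb41l4aos had groups that did not overlap, 2 of 8 hosts with higher EpPT2 values against 12.3% of all genes and 0 of 8 with lower values against 10.9%. The fitted log2 fold change was above 0 for 7 of the 8 hosts, against 47.9% of all genes, with a median of 0.65 over the hosts and -0.03 over all genes. Without Ctrl 3 the median over the hosts was 1.03. Adjusted p-values were 0.376 or higher, 0.376 being also the lowest of all genes. The hosts were chosen with earlier results of these data known. Their shares beside all genes, here and in the other comparisons, are therefore descriptions.

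Epb41l4aos averaged 36.2 ± 3.22 CPM in EpPT2 and 17.7 ± 4.87 CPM in Ctrl (SD, n = 3 each), a fitted 2.05-fold difference (log2 fold change 1.03, SE 0.31, edgeR adjusted p 0.376, unadjusted p 0.0075). Its interval of 2 SE ran from 0.41 to 1.66 on the log2 scale. Snhg20 had the highest fitted fold among the hosts, 2.42 (log2 fold change 1.27, SE 0.61, edgeR adjusted p 0.415), with 66.5 ± 29.5 CPM in EpPT2 and 27.5 ± 8.69 CPM in Ctrl. Its SE was the largest of the 8, and its groups overlapped, with EpPT2 1 below Ctrl 3.

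Snhg12 averaged 30.2 ± 3.63 CPM in EpPT2 and 16.1 ± 4.31 CPM in Ctrl, with a log2 fold change of 0.91 (SE 0.37, edgeR adjusted p 0.382). Snhg17 averaged 142 ± 36.5 CPM in EpPT2 and 84.5 ± 23.3 CPM in Ctrl, with a log2 fold change of 0.75 (SE 0.31, edgeR adjusted p 0.388). For Snhg8 the log2 fold change was 0.56 (SE 0.34, edgeR adjusted p 0.501). None of these passed the test over all genes.

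The 3 most abundant hosts by CPM other than Snhg17 had differences within about 1 SE of 0. Gas5 averaged 194 ± 50.8 CPM in EpPT2 and 165 ± 33.8 CPM in Ctrl, with a log2 fold change of 0.24 (SE 0.30) and a 2 SE interval from -0.36 to 0.84. Snhg6 had a log2 fold change of 0.30 (SE 0.51) and an interval from -0.72 to 1.32, and its value was 1.06 without Ctrl 3 and 0.02 without Ctrl 2. Snhg1 averaged 129 ± 41.4 CPM in EpPT2 and 146 ± 74.7 CPM in Ctrl, with a log2 fold change of -0.18 (SE 0.41) and an interval from -1.0 to 0.63. These intervals include differences as large as that fitted for Snhg8, so no difference was detectable here, which does not show that the levels were equal. In bulk RNA, more cells that express a gene and more of its RNA per cell cannot be told apart.

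The comparison of EpPT1 with Ctrl shares its Ctrl libraries with the comparison just given, so the 2 sets of values are not independent. No host passed the edgeR test (0% of 14471 genes did), and adjusted p-values were 0.991 or higher. Epb41l4aos alone had an unadjusted p under 0.05 and was higher, 1 of 8 hosts against 3.01% of all genes, and none was lower, against 0.919%. No host had groups that did not overlap, against 2.73% of all genes with higher and 2.53% with lower EpPT1 values. The log2 fold change was above 0 for 6 of 8 hosts against 48.0% of all genes, with a median of 0.48 over the hosts and -0.02 over all genes. The median over the hosts was -0.06 without EpPT1 3 and 0.81 without Ctrl 3.

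Epb41l4aos averaged 29.8 ± 10.5 CPM in EpPT1 and 17.7 ± 4.87 CPM in Ctrl, with a log2 fold change of 0.75 (SE 0.31, edgeR adjusted p 0.991). Snhg12 averaged 27.5 ± 14.8 CPM in EpPT1 and 16.1 ± 4.31 CPM in Ctrl, with a log2 fold change of 0.77 (SE 0.37, edgeR adjusted p 0.991). Snhg20 had a log2 fold change of 0.94 (SE 0.61), and -0.17 without the library EpPT1 3, which had 6.93% mitochondrial counts. Without that library Snhg12 was at 0.24, Snhg8 at 0.21 against 0.58 with it, Snhg17 at 0.06 against 0.37, and Epb41l4aos at 0.49. The fitted differences of these 5 hosts between EpPT1 and Ctrl thus moved by over 1.5 times with this 1 library.

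The remaining hosts of that comparison lay close to 0 or below. Gas5 had a log2 fold change of 0.12 (SE 0.30) and Snhg6 of -0.06 (SE 0.51). Snhg1 averaged 108 ± 44.0 CPM in EpPT1 and 146 ± 74.7 CPM in Ctrl, with a log2 fold change of -0.43 (SE 0.41, edgeR adjusted p 0.991). Without Ctrl 3 the value for Snhg1 was 0.07, and that for Snhg6 was 0.70.

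EpPT2 against EpPT1 compares the 2 labelled fluences directly. No host passed the edgeR test (0% of 14471 genes did) and adjusted p-values were all 1. No host reached an unadjusted p under 0.05, against 0.0691% of all genes higher and 0.145% lower in EpPT2, and no host had groups that did not overlap, against 1.26% and 1.20%. Fitted log2 fold changes were above 0 for 7 of 8 hosts against 48.3% of all genes, and ranged from -0.03 (SE 0.34) for Snhg8 to 0.38 (SE 0.31) for Snhg17. Epb41l4aos averaged 36.2 ± 3.22 CPM in EpPT2 and 29.8 ± 10.5 CPM in EpPT1, with a log2 fold change of 0.28 and a 2 SE interval from -0.33 to 0.90. Without EpPT1 3 the value was 1.45 for Snhg20, against 0.34 with it, and 0.67 for Snhg12, against 0.14 with it. In the test for any difference among the 3 groups no host passed (0% of 14471 genes did). Epb41l4aos had the lowest unadjusted p of the hosts in it, 0.022 (edgeR adjusted p 0.911), 1 of 8 hosts under 0.05 against 5.22% of all genes.

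**Figure D3:**
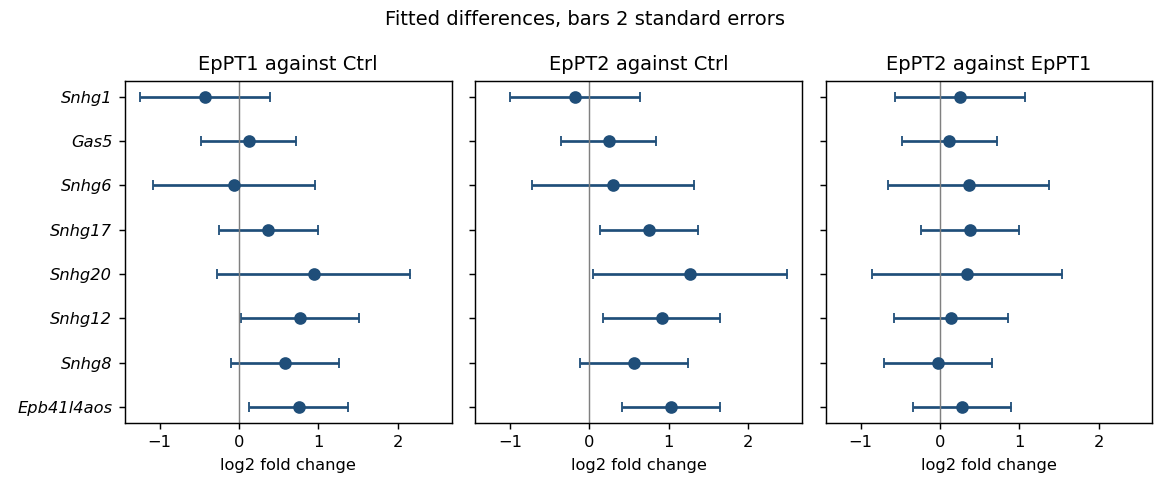
Fitted log2 fold changes of the 8 tested host genes (horizontal axes) in the 3 comparisons, with bars of 2 standard errors. In EpPT2 against Ctrl the bars of Epb41l4aos, Snhg12, Snhg17 and Snhg20 lie above 0 but no adjusted p is under 0.376, and in EpPT2 against EpPT1 all bars cross 0.

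The count of 0 hosts called in each comparison was the same with limma-voom, which also called 0 genes in each. DESeq2 called 1 gene (0.00691%) in EpPT1 against Ctrl, 61 genes (0.422%) in EpPT2 against Ctrl and 0 in EpPT2 against EpPT1, with no host among them. With no filter on low counts edgeR called Snhg20 in EpPT2 against Ctrl (log2 fold change 1.29, SE 0.33, adjusted p 0.024), 1 of 9 hosts among 268 of 28724 genes (0.933%). It called no host in EpPT1 against Ctrl (0.111% of genes) or in EpPT2 against EpPT1 (0.00696%). That fit included many genes with few counts, and its SE for Snhg20 was 0.33 against 0.61 with the filter.

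The difference between EpPT2 and Ctrl was larger in hosts with a higher GC content, though not in strict order. GC content of the longest annotated transcript was 40.5% for Snhg1, 41.5% for Snhg6, 42.3% for Gas5, 45.7% for Snhg8, 47.6% for Snhg12, 52.3% for Snhg17, 53.1% for Snhg20 and 55.3% for Epb41l4aos. Across the 8 hosts the log2 fold change had a Pearson correlation of 0.89 and a Spearman correlation of 0.93 with GC content, against a Spearman correlation of 0.62 across all genes. The hosts share the same libraries and are not independent points, so these correlations are descriptions.

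Removing the trend with GC content from each library changed the picture among the hosts more than their median. The median log2 fold change of EpPT2 against Ctrl was then 0.64, over a range from 0.19 (SE 0.44) for Snhg1 to 1.03 (SE 0.56) for Snhg20, with 8 of 8 hosts above 0 against 43.2% of all genes. Epb41l4aos came to 0.63 (SE 0.22), while Gas5 was at 0.57 (SE 0.35) and Snhg12 at 1.02 (SE 0.38). The correlation with GC content across hosts was 0.48 (Pearson) after the correction. No host passed the test (0% of 14458 genes did). Snhg12 and Epb41l4aos were higher in EpPT2 with unadjusted edgeR p-values under 0.05, 2 of 8 hosts against 2.97% of all genes in that direction. After the same correction Snhg12 alone was higher at such a p in EpPT1 against Ctrl, 1 of 8 hosts against 1.29% of all genes. In EpPT2 against EpPT1 none was, against 0.0761% higher.

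**Figure D4:**
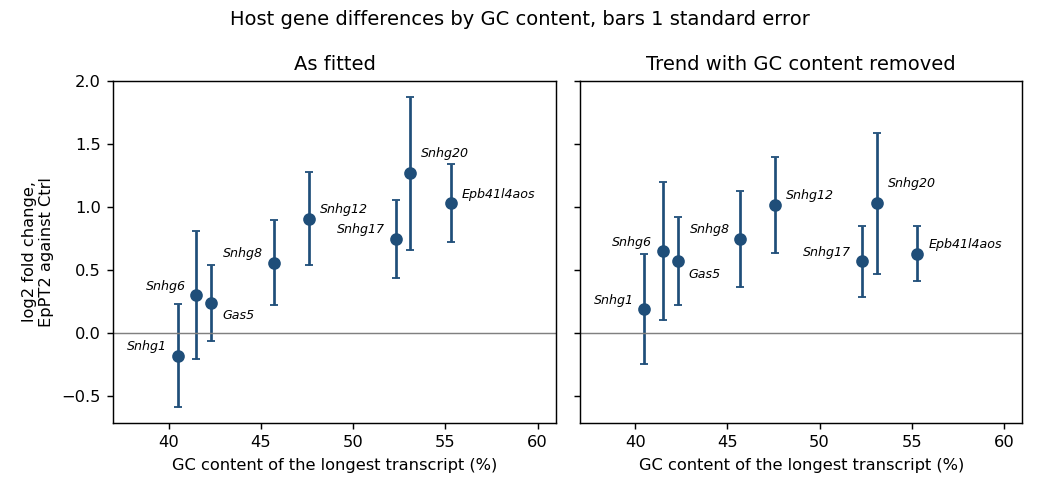
Log2 fold change of EpPT2 against Ctrl (vertical axes) by GC content in percent (horizontal axes) for the 8 tested host genes, as fitted (left) and after removal of each library's trend with GC content (right), with bars of 1 standard error. On the left the values run from -0.18 for Snhg1, the host with the lowest GC content, to 1.27 for Snhg20 and 1.03 for Epb41l4aos, the hosts with the highest, and on the right all 8 lie between 0.19 and 1.03.

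With each library's mitochondrial share added to the model, the SEs of the hosts became smaller. Their median SE in EpPT2 against Ctrl was 0.19, against 0.36 without the covariate. In that fit Epb41l4aos was at 0.96 (edgeR adjusted p 0.0966), Snhg20 at 0.87, Snhg12 at 0.79, Snhg17 at 0.60 and Snhg8 at 0.47. These 5 of 8 hosts were higher in EpPT2 with unadjusted edgeR p-values under 0.05, against 13.1% of all genes in that direction. In EpPT1 against Ctrl the same 5 hosts were higher at such a p, against 8.77% of all genes. In EpPT2 against EpPT1 none was, against 0.263% higher. In EpPT2 against Ctrl Gas5 was at 0.08 and Snhg1 at -0.34. None passed after adjustment (0% of genes did). Among only the 5 libraries with under 5% mitochondrial counts, a single EpPT2 library was set against 2 Ctrl libraries on the assumption that it varies like the others, and the log2 fold changes were 1.17 for Epb41l4aos, 0.98 for Snhg12, 0.55 for Snhg20 and -0.08 for Gas5.

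The make-up of the host counts, which no scaling between libraries can alter, is given by the share of each host in their sum. Of the counts of all 9 hosts, Snhg1 gave 15.9% to 18.1% in the EpPT2 libraries and 16.3% to 18.8% in the EpPT1 libraries, against 23.0% to 27.8% in Ctrl. Epb41l4aos gave 4.08% to 6.60% in EpPT2 and 3.86% to 6.68% in EpPT1, against 2.76% to 3.83% in Ctrl. Snhg12 gave 3.52% to 5.21% in EpPT2 and 3.55% to 4.71% in EpPT1, against 2.51% to 3.17% in Ctrl. No such shares were computed for other sets of genes, so how often the shares of a set part in this way is not known here.

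Gas5 and Snhg1 together made up 42.6% to 44.1% of host counts in EpPT2 and 43.3% to 50% in EpPT1, against 52.2% to 56.8% in Ctrl. The share of Gas5 alone overlapped between the groups, at 25.7% to 26.7% in EpPT2, 26.5% to 31.2% in EpPT1 and 24.3% to 33.4% in Ctrl. Snhg17 gave 18.6% to 19.7% in EpPT2 against 13.3% to 16.3% in Ctrl, and its EpPT1 values of 16.1% to 20.0% overlapped those of Ctrl. Shares of one sum depend on each other, Snhg1 and Gas5 have a lower GC content than Snhg12, Snhg17 and Epb41l4aos, and the shares were not tested. The summed level of the hosts was 509, 867 and 868 CPM in EpPT2 and 490, 458 and 943 CPM in EpPT1, against 456, 432 and 834 CPM in Ctrl, so that it differed more between libraries of a group than between groups.

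**Figure D5:**
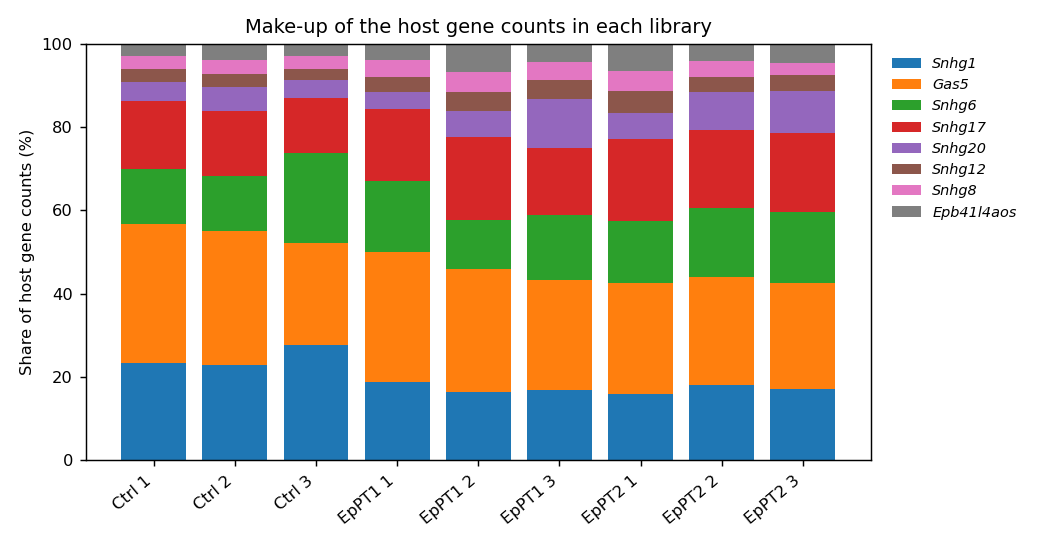
Share of each host gene in the summed counts of the host genes, in percent (vertical axis), for each of the 9 libraries. Snhg1, at the foot of each bar, takes 23.0% to 27.8% in the Ctrl libraries and 15.9% to 18.8% in the 6 exposed libraries.

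The hosts varied together across libraries, though not all to the same degree. Over the 9 libraries, Pearson correlations of log2 CPM were 0.90 between Snhg1 and Snhg6, 0.91 between Snhg6 and Gas5, 0.95 between Snhg17 and Snhg20, and 0.93 between Snhg12 and Epb41l4aos. Between Snhg1 and Epb41l4aos the value was 0.23, and between Snhg1 and Snhg12 it was 0.42. The mean of the hosts' standardised log2 CPM was highest in EpPT1 3 (1.25) and lowest in Ctrl 2 (-1.05). It was between 0.44 and 1.25 in the 4 libraries with over 5% mitochondrial counts and between -1.05 and -0.25 in the others. All pairs share the same libraries and scaling, and these are descriptions over 9 libraries.

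The 5 genes outside the hosts that were named by likeness to that mean were Upf1, the helicase at the centre of nonsense-mediated decay (Pearson r 0.996 over 9 libraries, mean 253 CPM), Pan2, a subunit of a poly(A) nuclease (0.995), Leng8 (0.992), Kmt2b, a histone H3 lysine methyltransferase (0.990), and the zinc finger gene Zfp276 (0.990). By Spearman correlation Pan2 was first at 1.000 and Upf1 was 28th at 0.967. None of the 5 passed the edgeR test in EpPT2 against Ctrl, with log2 fold changes from 0.49 (SE 0.35) for Pan2 to 1.14 (SE 0.68) for Leng8.

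Genes next to the hosts give the local context. Slc3a2, the heavy chain of an amino acid transporter, starts 105 bases from Snhg1 on the opposite strand and had a log2 fold change of 0.85 (SE 0.54) in EpPT2 against Ctrl, where Snhg1 had -0.18. Epb41l4a, which lies 340 bases from Epb41l4aos on the opposite strand and does not overlap it, had -0.05 (SE 0.74), where Epb41l4aos had 1.03. Zbtb37, whose span overlaps that of Gas5 on the opposite strand without shared exonic bases, had -0.34 (SE 0.35), where Gas5 had 0.24. The other tested neighbours were Trnau1ap beside Snhg12, at 0.28 (SE 0.29), and Rcc1 and Gm17300, which overlap Snhg3, at 0.72 (SE 0.42) and 0.58 (SE 0.63). None of the 6 passed the test. The differences between each host and its neighbour were not tested. Whether the counting used strand was not given in the sources used here, and without it reads of overlapping genes on opposite strands cannot be told apart.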

How the data were processed

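The authors deposited 1 table of raw counts per gene with 9 library columns, and a gene length column, used only for TPM. The submitters' processing notes name Bowtie 0.12.2 and build mm8. Coordinates in the table equal those of GENCODE M21 (GRCm38) for 53499 of 54409 genes found there (98.3%), including all 9 hosts, so GRCm38 is used here. Counter and strand setting were not given in the sources used here. While the title names human breast epithelium, organism label and gene IDs are mouse.

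With edgeR 4.0.16 in R 4.3.3, counts were tested for the 14471 genes that passed filterByExpr, with TMM scaling, 1 quasi-likelihood fit over all 9 libraries and Benjamini-Hochberg adjustment at 0.05. Tests were two-sided. SEs were derived from the fold change and its F statistic, and the biological coefficient of variation was 39.3%. Fits were tested on simulated data. Alternatives were limma-voom (limma 3.58.1), DESeq2 1.42.0 and its size factors, other filters, a replicate block, a GC spline with 5 degrees of freedom removed per library (13 tested genes had no GC value), the mitochondrial share as a covariate, library subsets and leaving out each library. Hosts, lists and alternatives were chosen with earlier results of these data known. Other genes named are the 2 of each list with the smallest p in EpPT2 against Ctrl, tested genes within 2 kb of a host, and the 5 genes most alike at 5 CPM or more, leaving out predicted genes. Correlations use log2 CPM with a prior count of 2. Each pair of libraries within a group differed beyond sampling noise, and each library was counted as 1 replicate. Such differences do not show that the libraries are separate cultures. No molecular identifiers are recorded, so floors cover counting error only.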

Additional observations from a re-analysis of the deposited data

How the results depend on the processing

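Each host value was recomputed under 20 alternatives. In EpPT2 against Ctrl 5 of 160 values changed sign, in EpPT1 against Ctrl 13 and in EpPT2 against EpPT1 17, and 1 became significant (Snhg20 without a filter). Hosts called stayed at 0 under the others. Genes called without a filter were 32 in EpPT1 against Ctrl, 268 in EpPT2 against Ctrl (1 host), 2 in EpPT2 against EpPT1 and 132 for any difference, and with DESeq2 1, 61, 0 and 2. Leaving out single libraries gave 0 to 2 genes in EpPT2 against Ctrl (2 without EpPT1 1) and 0 in the rest. Correlations of same-numbered deviations ran from -0.636 to 0.732, which does not settle whether the replicate numbers pair the libraries. With a replicate block the lowest edgeR adjusted p of a host in EpPT2 against Ctrl was 0.08. With the replicate block EpPT1 against Ctrl was 0.04 for Snhg6 (0.30 with GC correction), EpPT2 against Ctrl was 0.27 for Snhg1, -0.01 for Pih1d1 and 0.03 for Zbtb37 with GC correction, and 0.10 (0.15) for Epb41l4a, EpPT2 against EpPT1 was 0.05 (0.12) for Snhg8, and the block called 0 genes. With GC correction alone these were 0.22, 0.19, -0.03, 0.02, 0.01 and 0.01, and with limma-voom Snhg6 was 0.04 and Snhg8 0.04. With the mitochondrial share Snhg6 was 0.13, Epb41l4a 0.05, and in EpPT2 against EpPT1 Snhg1 -0.01 and Gas5 -0.05. In the libraries under 5% mitochondrial counts, Snhg6 was 0.24 and Gas5 -0.0013 in EpPT1 against Ctrl, Gas5 -0.08 in EpPT2 against Ctrl, and Snhg1 -0.03, Snhg8 0.14 and Gas5 -0.08 in EpPT2 against EpPT1.

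Without 1 library at a time, EpPT1 against Ctrl ranged from -0.81 to 0.07 for Snhg1, -0.53 to 0.70 for Snhg6, -0.17 to 1.34 for Snhg20 and -0.19 to 0.30 for Gas5, with the lowest values without EpPT1 3. EpPT2 against Ctrl ranged from -0.40 to 0.32 for Snhg1, highest without Ctrl 3, 0.02 to 1.06 for Snhg6, and -0.48 to 0.35 for Epb41l4a. EpPT2 against EpPT1 ranged from -0.20 to 0.34 for Snhg8, -0.10 to 0.67 for Snhg12, -0.06 to 1.45 for Snhg20 and -0.05 to 0.43 for Gas5, highest without EpPT1 3. The causes were not tested. Snhg3 and the 30 snoRNAs at 0 had too few counts for a fold. Snord87 and Gm23639 passed the filter on counts, but their folds are not given here.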

Other observations

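Other genes of snoRNA biology were described by 8 lists in EpPT2 against Ctrl, in which 0 genes of any list passed the edgeR test (0% of 14471 genes did). Of 9 tested noncoding hosts outside the named set, 7 had a log2 fold change above 0, against 47.9% of all genes. Their median was 0.32, against -0.03 over all genes. The host 2410006H16Rik had 86.1, 108 and 95.2 CPM in EpPT2 and 34.7, 54.2 and 60.2 CPM in Ctrl, which did not overlap. That made 1 of the 9 hosts higher without overlap, against 12.3% of all genes, and 0 lower, against 10.9%. The log2 fold change was 0.96 (SE 0.31, edgeR adjusted p 0.376) for 2410006H16Rik and 0.42 (SE 0.28) for Snhg15. Of 33 protein-coding hosts, 14 were above 0, against the same 47.9% of all genes, and the median was -0.09. Rpl23a, a ribosomal protein gene, had the highest value of these at 2.44 (SE 0.54, adjusted p 0.376) and Rps12 the lowest at -1.06 (SE 0.32). Both have near-identical copies elsewhere in the genome between which the counting could split reads, so their values are uncertain.

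The proteins that package snoRNAs showed a median of 0.25 over 8 core genes, with Nop10 at 0.62 (SE 0.29) and Nop56, itself a host, at 0.42 (SE 0.22). The 11 assembly factors had a median of -0.24, with Pih1d1 at 0.66 (SE 0.22; -0.03 after GC correction) and Naf1 at -0.80 (SE 0.43). Nonsense-mediated decay factors had a median of 0.19 over 18 genes, with Smg5 at 0.86 (SE 0.26) and Smg9 at 0.84 (SE 0.24). Translation genes with a terminal oligopyrimidine start had a median of -0.16 over 14 genes, with Eif3e at -0.85 (SE 0.28) and Tpt1 at -0.77 (SE 0.29). Growth arrest specific genes other than Gas5 had a median of -0.04 over 6 genes, with Gas2l1 at 0.90 (SE 0.27) and Gas2l3 at -0.55 (SE 0.26). Among 8 genes of the glucocorticoid receptor and its targets the median was 0.15. The receptor gene Nr3c1 had -0.53 (SE 0.18) and the clock gene Per1 0.96 (SE 0.37), neither of which passed the test. The list medians moved when 1 library was left out. The core genes ranged from -0.14 (without EpPT2 1) to 0.46 (without Ctrl 1), the assembly factors from -0.56 (without EpPT2 1) to 0.01 (without Ctrl 1), and the translation genes from -0.44 (without EpPT2 1) to -0.04 (without Ctrl 1). The noncoding hosts ranged from 0.18 to 0.54 (without Ctrl 3), the protein-coding hosts from -0.14 to 0.05 (without Ctrl 3), the decay factors from 0.06 (without Ctrl 2) to 0.25, the growth arrest genes from -0.25 (without EpPT2 2) to 0.21 (without Ctrl 2), and the receptor list from 0.03 (without Ctrl 2) to 0.31 (without Ctrl 3).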
